A study of Mus musculus with 6 samples.

Results

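The alcohol dehydrogenase family of the mouse was followed across whole uteri in which *Sox17*, a transcription factor gene, had been deleted in the epithelium. Its members were *Adh1*, *Adh4*, *Adh5*, *Adh6a*, *Adh6b* and *Adh7*, 6 of the 20145 genes that the array probes could be named for. Probes were matched to them by RefSeq accession. Of the 6 genes, 5 had a probe each, and no probe used here carried the name of *Adh6b*. The family was picked because its genes had already been seen to differ on these same arrays. The differences between genotypes in the members are therefore given as a description, without a test.

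RNA came from uteri at gestation day (GD) 3.5, counted from the plug as GD 0.5, after mating at 8 to 10 weeks of age and after embryos had been flushed out. The 3 Sox17f/f mice carried the floxed *Sox17* allele and no recombinase. The 3 Sox17ed/ed mice (LtfiCre/+ Sox17f/f) carried the same floxed allele together with an iCre at the *Ltf* locus. The study describes this iCre as specific to uterine epithelium and active from puberty. Only Sox17ed/ed mice carried it, so an effect of the iCre itself and the loss of *Sox17* cannot be told apart. Each uterus was read on its own 1-colour Agilent G3 Mouse GE array.

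Alcohol dehydrogenases are zinc enzymes that use NAD to oxidize alcohols to aldehydes, and aldehyde dehydrogenases then oxidize the aldehydes to acids. The same pair of steps turns retinol into retinal and retinal into retinoic acid, a hormone-like signal to which the endometrium responds. ADH1 (class I) handles ethanol and retinol, and ADH7 (class IV), best known from the stomach and upper digestive tract, handles retinol as well. ADH5 (class III) is the glutathione-dependent formaldehyde dehydrogenase, also called S-nitrosoglutathione reductase. ADH4 (class II) is chiefly a liver enzyme. The class V genes *Adh6a* and *Adh6b* lie next to each other and are the least characterized.

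Between 33686 and 38941 of the 59305 spots other than controls were well above background, the software's test against the local background, and 0 spots were saturated. The normalized log2 signal of *Sox17* was 12.21, 12.07 and 12.22 on the Sox17f/f arrays and 9.75, 9.59 and 9.81 on the Sox17ed/ed arrays, a log2 fold change of -2.45, and a second *Sox17* probe differed by -2.97. Where the probes lie relative to the floxed part is not given in the sources used here. The 6 arrays shared a single slide and scan, with each genotype in a line of its own, so slide position and genotype cannot be told apart. The tissue is bulk uterus, in which more cells of a type and more RNA per cell cannot be told apart.

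*Adh6a* differed most. Its normalized log2 signal was 5.60, 5.38 and 6.47 on the Sox17f/f arrays and 13.99, 13.67 and 13.69 on the Sox17ed/ed arrays. All 3 Sox17f/f arrays sat close to the dim end of the scale, yet each measured the probe well above background, and all 3 Sox17ed/ed arrays were bright. Before normalization the processed signal was 44.6, 41.3 and 95.4 in Sox17f/f uteri and 15927, 11959 and 12938 in Sox17ed/ed uteri. The mean was 5.81 ± 0.58 (SD, n = 3 arrays) in Sox17f/f and 13.79 ± 0.18 (SD, n = 3) in Sox17ed/ed uteri. The log2 fold change was 7.97 (standard error 0.29), a 251-fold higher signal in Sox17ed/ed uteri. The lowest Sox17ed/ed array lay 7.21 above the highest Sox17f/f array on the log2 scale. After normexp background correction, which lifts the dimmest values, the log2 fold change was 6.94, or 122-fold.

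Ranked from the most positive log2 fold change down, *Adh6a* stood 4th of the 14847 genes tested. In the same order it was 1st of the 13863 genes that were well above background on all 6 arrays. The spread among its Sox17f/f arrays came from replicate 3, which read 6.47. Without that array the log2 fold change was 8.30, and without Sox17f/f replicate 2 it was 7.75. Its paralog *Adh6b* and a pseudogene of the pair, *Adh6-ps1*, have no named probe here, and probe sequences were not analysed here. The signal is therefore that of the *Adh6a* probe, and a share from its close copies was not tested.

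*Adh1* was the other member with a higher signal in Sox17ed/ed uteri. Its normalized log2 signal was 12.35, 12.13 and 12.54 on the Sox17f/f arrays and 13.66, 13.70 and 13.58 on the Sox17ed/ed arrays. The probe was bright in both genotypes, and the groups did not overlap, with a gap of 1.05 between them. The means were 12.34 ± 0.21 (SD, n = 3) and 13.65 ± 0.06 (SD, n = 3). The log2 fold change was 1.31 (standard error 0.11), or 2.48-fold, which placed *Adh1* 331st from the top among all genes tested. With each array left out in turn it stayed between 1.21 and 1.41. Among the Sox17f/f arrays, replicate 3 was the highest and replicate 2 the lowest for both *Adh1* and *Adh6a*. The order was not shared among the Sox17ed/ed arrays, where replicate 2 was the highest for *Adh1* (13.70) and the lowest for *Adh6a* (13.67).

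*Adh5* read 6.50, 6.62 and 6.26 on the Sox17f/f arrays and 6.11, 6.37 and 6.22 on the Sox17ed/ed arrays. Here the groups overlapped: Sox17ed/ed replicate 2 was brighter than Sox17f/f replicate 3. The means were 6.46 ± 0.18 (SD, n = 3) and 6.23 ± 0.13 (SD, n = 3), and the log2 fold change was -0.23 (standard error 0.12). The value was negative whichever array was left out, between -0.33 and -0.15.

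*Adh4* and *Adh7* could not be given a fold. The *Adh4* probe was well above background on 1 array only, Sox17f/f replicate 3, where its processed signal was 23.8. Its other Sox17f/f signals were 10.3 and 8.51, and the Sox17ed/ed signals were 11.4, 8.41 and 3.86. For *Adh7*, 0 of 6 arrays measured the probe well above background. Its processed signal was 7.46, 8.83 and 14.1 in Sox17f/f uteri and 14.2, 4.47 and 13.3 in Sox17ed/ed uteri. The lowest signal that any array counted as well above background lay between 13.1 and 18.0, depending on the array.

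**Figure D1:**
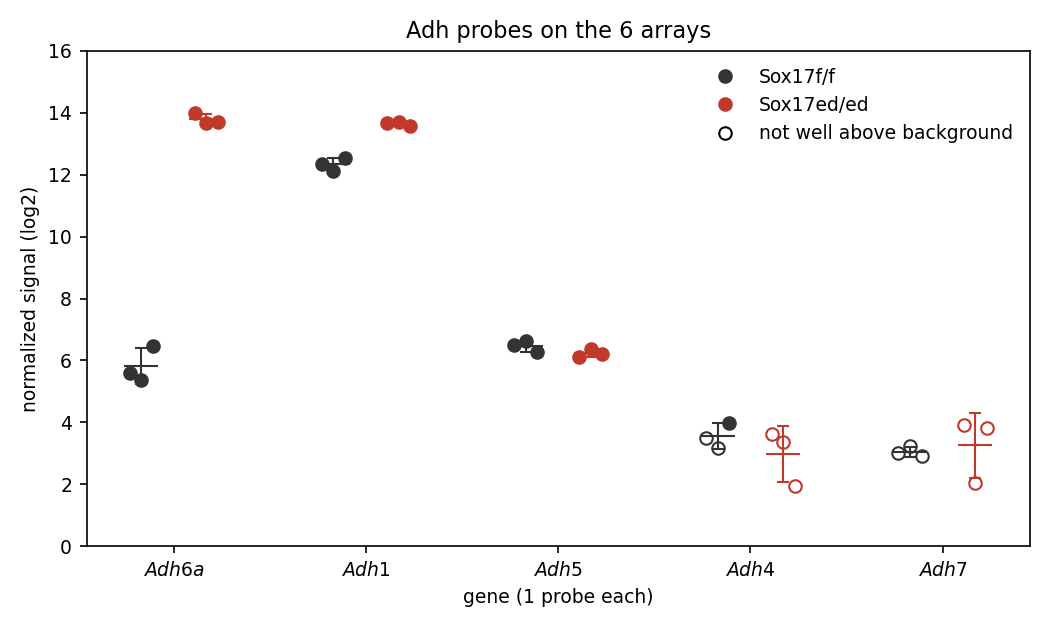
Normalized log2 signal of the 5 Adh probes on each array, Sox17f/f in black and Sox17ed/ed in red, with bars for the mean and SD of 3 arrays; open points were not well above background. *Adh6a* runs from 5.38 to 6.47 in Sox17f/f and from 13.67 to 13.99 in Sox17ed/ed uteri, the *Adh1* groups lie 1.05 apart and the *Adh5* groups overlap; heights are to be compared within a probe, not between genes.

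The study's methods set the thresholds for a regulated gene at an unadjusted p below 0.01 and a change of 1.4-fold or more. In the limma fit over all genes, 12.5% of the 14847 genes tested met both thresholds, 6.04% higher and 6.47% lower in Sox17ed/ed uteri. *Adh6a* and *Adh1* were among the genes that met them on the higher side, and *Adh5* did not. *Adh4* and *Adh7* were not tested, since a gene entered the test when 3 or more of the 6 arrays measured its probe well above background. The groups did not overlap for *Adh6a* and *Adh1*, as for 40.6% of all genes tested. Because the family was picked on this contrast, nothing is read from these counts.

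The genes whose pattern over the 6 arrays was closest to each member were found by the root-mean-square distance between log2 values centred on each gene's mean, over 14761 other genes with a value on every array. For *Adh6a* they were *Cdh16*, a kidney-type cadherin (distance 0.53), *Krt15*, a keratin (0.57), and *Cuzd1* (0.77). *Krt15* and *Cuzd1* were not well above background on any Sox17f/f array, and *Cdh16* was on 2 of 3. For *Adh1* they were *Fam241b* (0.09), *Gstt3*, a glutathione transferase (0.09), and *Pde8b*, a phosphodiesterase (0.10). For *Adh5* they were *Maf*, *Dcbld2* and *Klc3*, at distances of 0.04 to 0.05. The 6 arrays fall into 2 genotypes, so these distances mostly reflect the size of the difference between genotypes.

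All 6 genes lie side by side on chromosome 3. In the GRCm38.p6 gene table, which is not the mm9 build of the array design and was used only for order, they run *Adh7*, *Adh1*, *Adh6a*, *Adh6b*, *Adh4* and *Adh5*, with *Adh6-ps1* between *Adh6b* and *Adh4*. The higher signal thus belonged to *Adh1* and *Adh6a*, with no other protein-coding gene between them, while *Adh5* stands at the far end of the row. Of the 5 protein-coding genes on each side of the cluster, 7 were tested. *Metap1*, a methionine aminopeptidase gene next to *Adh5*, fell by 0.60 on the log2 scale (limma adjusted p = 0.00379). *Dapp1*, an adaptor gene on the *Adh7* side, fell by 0.56 (limma adjusted p = 0.00477), but with the mean of its probes in place of the brightest it was under the fold threshold. The other 5 did not pass, with log2 fold changes of -0.51 for *Mttp*, -0.30 for *Eif4e*, -0.23 for *Trmt10a*, -0.19 for *Tspan5* and 0.06 for *Rap1gds1*. No neighbour tested had a higher signal past the thresholds.

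**Figure D2:**
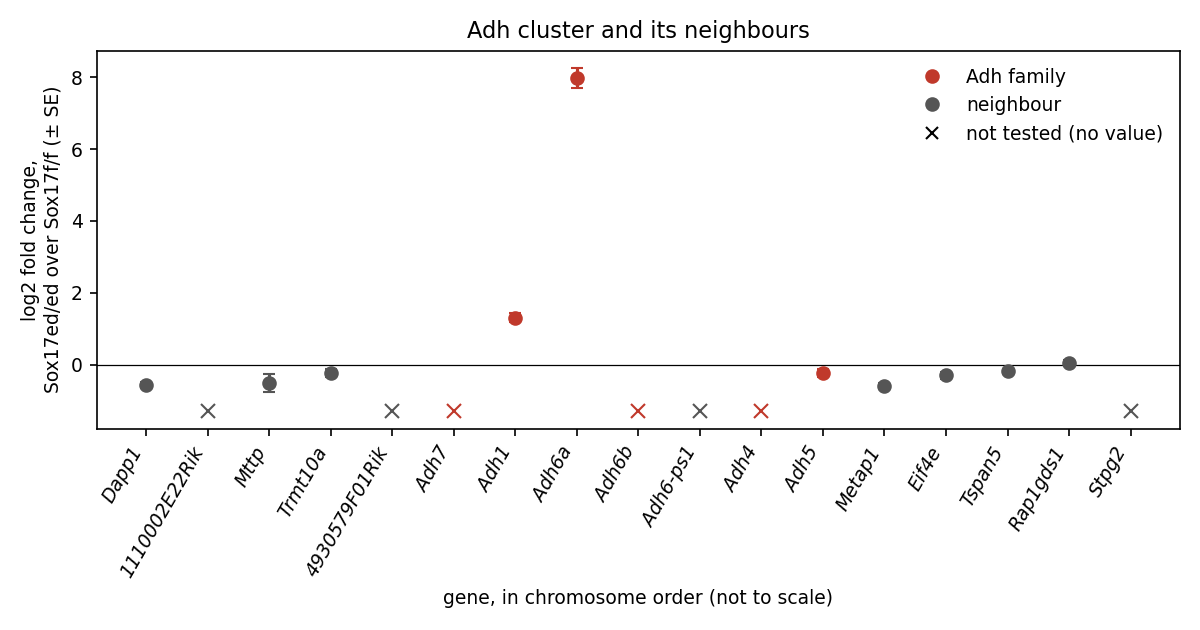
Log2 fold change, Sox17ed/ed over Sox17f/f, with its standard error, for Adh genes (red) and their neighbours (grey) in chromosome order; crosses mark genes with no value. *Adh6a* at 7.97 and *Adh1* at 1.31 stand above 0, and the 7 neighbours tested lie between -0.60 and 0.06.

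The stretch of 250 bases before the start site of each gene that was higher in Sox17ed/ed uteri is shown so that the promoters can be set side by side. Both are from RefSeq on GRCm38.p6, plus strand, *Adh6a* at chr3:138313036-138313285 and *Adh1* at chr3:138277335-138277584, and run 5′ to 3′. Capitals mark ACAAT, the core bound by SOX factors, and TATAAA, the TATA box, on either strand.

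Adh6a: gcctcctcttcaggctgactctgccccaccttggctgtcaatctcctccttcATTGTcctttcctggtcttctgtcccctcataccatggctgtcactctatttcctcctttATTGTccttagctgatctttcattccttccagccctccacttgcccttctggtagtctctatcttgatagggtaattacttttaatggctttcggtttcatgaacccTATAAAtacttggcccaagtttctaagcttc

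Adh1: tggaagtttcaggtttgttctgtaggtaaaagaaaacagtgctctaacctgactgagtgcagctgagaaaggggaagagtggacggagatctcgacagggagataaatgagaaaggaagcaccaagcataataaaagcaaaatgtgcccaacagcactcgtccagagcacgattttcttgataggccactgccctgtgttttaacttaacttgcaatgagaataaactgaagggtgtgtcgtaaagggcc

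The *Adh6a* stretch holds the SOX core on the minus strand at 198 and at 138 bases before the start site, and TATAAA at 31 bases before it, with no overlap among them. The *Adh1* stretch holds none of these letters. Of 32536 RefSeq promoters of the same length, 27.4% hold ACAAT and 12.3% hold TATAAA on either strand. A nuclear receptor half-site, AGGTCA, is in 14.0% of them and the forkhead site TGTTTAC in 3.17%, and neither is in the *Adh6a* or the *Adh1* stretch. *Adh4* and *Adh7*, which were at or near background, and one of the *Adh5* promoters also hold ACAAT. A match is a string of letters and was not tested as a binding site.

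Enzymes of the same pathways were tallied from lists chosen with earlier results of these data known. The aldehyde dehydrogenases, which take over the product of the ADH enzymes, had 19 of 21 genes tested, and 6 rose past the thresholds (31.6%), against 12.5% of all genes, while 0 fell. The largest log2 fold changes were 6.12 for *Aldh1a3* and 3.97 for *Aldh1a1*, which make retinoic acid from retinal, and 2.72 for *Aldh1a7*, a close relative of *Aldh1a1* (limma adjusted p = 1.63e-05, 1.92e-05 and 0.000981). *Aldh1a2*, the remaining retinaldehyde dehydrogenase of that kind, had a log2 fold change of 0.36 and did not pass. *Aldh4a1* (0.56), *Aldh2*, which oxidizes acetaldehyde (0.53), and *Aldh6a1* (0.49) lay close to the fold threshold, and none of these 3 passed without Sox17ed/ed replicate 3. With a 75th percentile shift in place of quantile normalization *Aldh2* and *Aldh6a1* did not pass. *Aldh1l1* (-0.53) did not pass but was called lower after normexp, with the filter on all 6 arrays, with the intensity trend, with the replicate block and without Sox17f/f replicate 2. The median log2 fold change of the list was 0.05, against -0.0016 over all genes tested.

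Retinol can also be oxidized by short-chain dehydrogenases, and 12 of 17 such genes and retinal reductases were tested. *Rdh1* (-1.25), *Rdh9* (-0.76) and *Rdh10*, the main retinol dehydrogenase of the embryo (-0.50), fell on the log2 scale, and after normexp *Rdh9* and *Rdh10* did not pass. *Dhrs3*, which reduces retinal back to retinol, rose by 0.95 (limma adjusted p = 0.00118). *Dhrs9* passed on the higher side but was well above background on only 1 of 3 Sox17f/f arrays. With its dim values raised to the lowest signal well above background on their arrays, a step chosen after seeing the data, the log2 difference was 2.75, and after normexp it was 1.19. The list's median was 0.05. *Dhrs9* no longer passed without Sox17f/f replicate 2 or without any 1 of the Sox17ed/ed arrays, and *Rdh10* without Sox17f/f replicate 3 or Sox17ed/ed replicates 1 or 2. Without Sox17ed/ed replicate 1, and likewise without replicate 2, 3 of these 5 genes passed. In the list of retinoid binding, uptake, breakdown and receptor genes, 6 of 15 tested rose and 2 fell, with a median of 0.17. Among them were *Crabp2* (4.76), *Cyp26b1* (2.02), *Crabp1* (1.48), *Rarb* (0.80) and *Stra6* (0.72) on the higher side. On the lower side were *Cyp26a1* (-3.49) and *Rbp4* (-0.84). Thus *Cyp26b1* and *Cyp26a1*, the retinoic acid breakdown genes tested, differed in opposite directions. The Sox17f/f arrays spread widely for *Cyp26a1*, at 10.00, 10.95 and 8.26, and its log2 fold change was -2.88 without replicate 2 and -4.23 without replicate 3 of them, and -2.71 after normexp.

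Among aldo-keto reductases, which reduce aldehydes and ketones, 12 of 17 were tested. *Akr1c12* (1.75) and *Akr1c13* (1.46) rose. *Akr1c18*, the enzyme that inactivates progesterone, was not well above background on any Sox17ed/ed array. It was at least 10.0-fold lower over all 6 arrays (limma adjusted p = 0.000241). That bound was 8.58-fold without Sox17ed/ed replicate 3, and after normexp *Akr1c18* was only 3.01-fold lower. With any 1 Sox17f/f array left out it failed the filter on low signal. The other 9 did not pass, and the median of the list was 0.21. Of 10 other medium-chain dehydrogenases and reductases, the structural relatives of the ADH enzymes, 1 passed. *Vat1l* was at least 1.49-fold lower (limma adjusted p = 0.0390), a call lost with no filter, with the replicate block, after normexp and without Sox17ed/ed replicate 2, and also when any 1 Sox17f/f array was left out, since it then failed the same filter. The other 9, from *Mecr* (-0.26) to *Sord* (0.38), did not pass, and the median was -0.08. Of 6 other ethanol, formaldehyde and acetate enzymes tested, *Adhfe1* rose by 1.19, with 2 of 3 Sox17f/f arrays above background. *Acss2*, which activates acetate, fell by 0.68. *Adhfe1* did not pass after normexp (0.29) and failed the filter on all 6 arrays. *Acss2* no longer passed with the replicate block, without Sox17f/f replicate 1 or without Sox17ed/ed replicate 3. *Cat* (0.44), *Acss1* (0.16), *Esd*, which acts after ADH5 in formaldehyde removal (-0.06), and *Acss3* (-0.15) did not pass, and the median of these enzymes was 0.05. *Cyp2e1*, the microsomal ethanol oxidase, was below the filter on low signal.

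**Figure D3:**
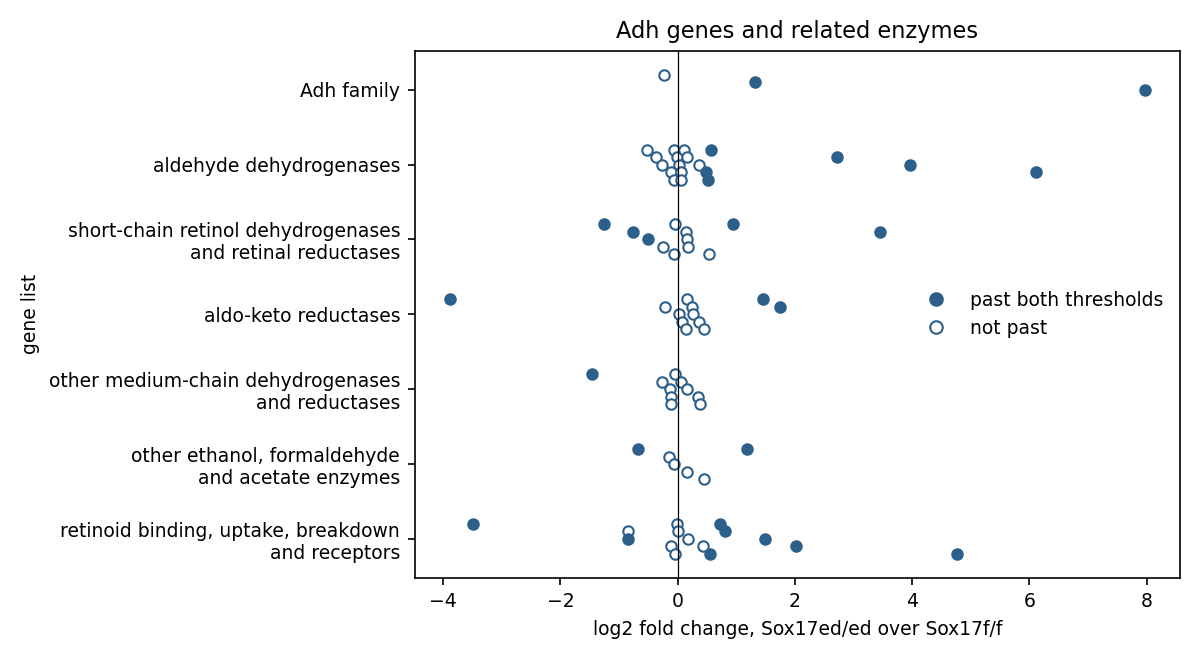
Log2 fold change, Sox17ed/ed over Sox17f/f, of each tested gene of the Adh family and of 6 lists of related genes, filled where both thresholds were met, with genes dim in one genotype drawn at their fitted value. *Adh6a* at 7.97 is the rightmost point and *Aldh1a3* at 6.12 the next.

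Some markers of cell types also differed between genotypes, in both directions, and their part in the values of *Adh6a* and *Adh1* was not tested. All 5 gland markers fell, and their mean log2 signal was 11.45 to 11.95 on the Sox17f/f arrays and 3.94 to 5.13 on the Sox17ed/ed arrays. The Sox17ed/ed mean is uncertain, since *Prss29* was well above background on 0 of 3 of these arrays and *Cxcl15* and *Spink1* on 2 of 3. Of 9 markers of uterine epithelium 4 rose past the thresholds, among them *Krt19* (2.10) and *Krt7* (1.46), and 0 fell past them. The other 5 were *Elf3* (0.61), *Epcam* (0.10), *Esrp1* (-0.06), *Krt18* (-0.16) and *Cldn4* (-0.34). The mean of the list was 10.16 to 10.37 on the Sox17f/f arrays against 10.63 to 10.95 on the Sox17ed/ed arrays. Of 9 stromal markers 0 passed the thresholds, of 4 endothelial markers 0 and of 4 macrophage and leukocyte markers 0, and at a limma adjusted p under 0.05 with no fold threshold 2, 3 and 1 of them did. Of 6 smooth muscle markers 1 fell, *Actg2* (-0.64). Adipocytes are rich in *Adh1*. Of 7 adipocyte markers 3 were tested, *Cfd* (1.08), *Adipoq* (0.95) and *Fabp4* (-0.78), and 0 passed by either rule. *Adipoq* was well above background on 1 of 3 Sox17f/f and 2 of 3 Sox17ed/ed arrays. *Lep*, *Plin1*, *Cidec* and *Retn* were below the filter. A share of fat in the *Adh1* signal was not tested. Of 10 markers of stratified squamous epithelium 4 were tested, and *Krt5*, not well above background on any Sox17f/f array, was at least 5.25-fold higher (limma adjusted p = 0.0446). Its Sox17ed/ed signals were 7.80, 4.94 and 5.33, and without replicate 1 of them the bound was 2.83-fold. It no longer passed when any 1 array was left out, with the replicate block, with no filter, after normexp or with the 75th percentile shift. *Krt14* (0.30), *Krt13* (0.06) and *Trp63* (-0.12) did not pass, although *Krt13* did, on the higher side, with the mean of its probes. The probe that stood for *Trp63* had a mean log2 signal of 11.38 in Sox17f/f and 11.26 in Sox17ed/ed uteri. By quantitative PCR the study instead reported more *Trp63* mRNA in Sox17ed/ed than in Sox17f/f uteri. The reason for this difference between array and PCR was not tested. Of 3 mesothelial markers *Upk3b* rose by 1.56 on the log2 scale and *Lrrn4* was at least 1.86-fold lower. *Lrrn4* was well above background on 0 of 3 Sox17ed/ed arrays, and without replicate 3 of them its bound was 1.69-fold. Of 4 ovary and oviduct markers tested *Ovgp1* fell by 2.92 on the log2 scale.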

How the data were processed

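Whole-uterus RNA of 3 Sox17f/f and 3 Sox17ed/ed mice was grouped by genotype from the labels, 1 mouse to an array. The deposited intensity values are the processed signals of Agilent Feature Extraction 11.0.1.1, made after background subtraction and a fitted spatial trend within each array; a deposited value table of the same arrays matched them, nearly all probes to within 0.161%. Neither is normalized between arrays. Values near background are therefore uncertain on a log scale.

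Control spots and 169 to 302 outlier spots per array were left out. Log2 signals were quantile normalized, as the study's methods state, and spots of a probe averaged. A probe needed to be well above background on at least 3 arrays, and the brightest stood for its gene. Of 55681 probes, 26582 had an accession in the RefSeq table of GRCm38.p6. Genotypes were compared with limma 3.58.1 (lmFit, eBayes) in R 4.3.3, p-values adjusted by Benjamini-Hochberg across 14847 genes. Python 3.11.15 was used for tallies and plots. The fit was tested on simulated arrays. A probe dim on every array of a genotype gives a bound, against the higher of its own signal and the lowest signal well above background on each array. Labels do not say more of how mice were sampled. The p-values set the difference between genotypes against the spread between these arrays, moderated over all genes by eBayes. The number of arrays limits precision.

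The members, lists and motifs were chosen with earlier results of these data known. Genes named were all members, all neighbours, from each list those past the thresholds, up to the 6 largest, with others where fewer than 4 passed, and the 3 genes nearest each member; other list genes and markers were named after their values were seen. The alternatives were a 75th percentile shift, normexp, no filter, a filter on all 6 arrays, the mean of probes, an intensity trend, the deposited table, the replicate block, other thresholds and each array left out.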

Additional observations from a re-analysis of the deposited data

How the results depend on the processing

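*Adh6a* and *Adh1* met the thresholds, and *Adh5* did not, in every alternative tried. The family was picked on this contrast and every alternative used the same arrays, so no support is read from these calls. The direction of all 3 genes was the same throughout. The value moved by more than the spread between arrays only for *Adh6a* after normexp background correction, to 6.94. That correction was chosen after seeing the data in this form, since median spot signals stood in for mean ones. With each array left out in turn, log2 fold changes ran from 7.75 to 8.30 for *Adh6a*, from 1.21 to 1.41 for *Adh1* and from -0.33 to -0.15 for *Adh5*. Each member had 1 probe, so no other probe could be tried. *Adh4* and *Adh7* were too dim for any order of their values.

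Of all genes, 1857 met the thresholds, 817 with a fold threshold of 2, 2808 at an adjusted p under 0.05 alone, and 1584 to 1945 with an array left out. With a fold threshold of 2, 3 aldehyde dehydrogenases, 2 short-chain dehydrogenases, 1 of the ethanol, formaldehyde and acetate enzymes, 4 retinoid genes and 0 neighbours passed. At an adjusted p under 0.05, 5 aldo-keto reductases and 2 other medium-chain enzymes passed. After normexp, 3 short-chain dehydrogenases and 1 ethanol, formaldehyde and acetate enzyme passed. With no filter, or with probes above background on all 6 arrays, 0 other medium-chain enzymes passed, and in the latter case 1 ethanol, formaldehyde and acetate enzyme did. With the mean of a gene's probes 1 neighbour passed. Leaving out each array gave 3 to 6 aldehyde dehydrogenases, 3 to 5 short-chain dehydrogenases, 2 to 3 aldo-keto reductases, 0 to 1 other medium-chain enzymes, 1 to 3 ethanol, formaldehyde and acetate enzymes, 7 to 9 retinoid genes and 2 neighbours each time. The other causes of these moves were not tested.

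Replicate numbers are shared between genotypes, but deviations of same-numbered arrays correlated between -0.11 and 0.06, and 1 of 3 arrays of each genotype correlated best with its own number, so the arrays share only a number. With the replicate block 1796 genes passed, with 2 members as before, 0 other medium-chain enzymes and 1 ethanol, formaldehyde and acetate enzyme.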
